A study of Mus musculus with 66 samples.

Results

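Regenerating mouse muscle was compared between 2 windows of days, 4.5 to 5.5 d and 3 to 3.5 d after injection of cardiotoxin, the span in which new myotubes form. Cardiotoxin, from snake venom, kills muscle fibres but spares satellite cells, the stem cells that rebuild them. The comparison took every array of the later version of a mouse oligonucleotide array (called Av2 in the labels) made at 4.5, 5 and 5.5 d (6 arrays, the later window) and at 3 and 3.5 d (4 arrays, the earlier window). That is 10 of the 54 arrays of this version and of 66 arrays in all. The 2 arrays at 4 d were left out because they stood apart from both neighbouring times. All samples were total RNA of the gastrocnemius, a calf muscle, and the 2 untreated control arrays of the same version came from mice of 8 weeks. The labels of the 10 arrays give the time and a sample code but no strain, genotype, sex or age, and a dose (100 ul of 10 uM cardiotoxin) stands only on 10 arrays of the earlier version. Each time point had 2 arrays, here called replicates 1 and 2, and levels are printed as the range and median over the 6 arrays for the later window. All 6 later arrays carried the number 2 in their codes and the 2 of a time point differed in their letters. Whether the arrays of a time point came from separate mice, from the legs of 1 mouse or from pools is not stated. The p-values therefore measure only the spread between the 2 arrays of a time point, pooled over the 54 arrays of the later version. They do not count the spread between the times of a window.

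After injury, satellite cells leave quiescence, divide as myoblasts under the transcription factors Myf5 and Myod1, then stop dividing, switch on Myog and fuse into myotubes, long cells with many nuclei. Young myotubes first build their contractile filaments from embryonic and perinatal myosins and fetal light chains, and replace them with adult fast or slow forms as innervation and growth proceed. Meanwhile macrophages clear the debris of dead fibres, and fibroblasts lay down the matrix that surrounds the new fibres.

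Myod1 and Myog bind DNA at E boxes, written CANNTG, where N is any base. Since both factors changed between the windows, the promoters of 3 muscle genes that rose are shown with each E box in capitals. Myh8 and Myl4 were the largest rises among developmental sarcomere genes and Ache the largest among synapse genes. Each sequence runs from 250 bases before to 50 bases after the RefSeq transcript start on the plus strand of GRCm38.p6. The Myh8 promoter (chr11:67276874-67277173) held 2 E boxes, the Myl4 promoter (chr11:104550413-104550712) held none and the Ache promoter (chr5:137288004-137288303) held 1, and CAGCTG was in none of them. Both motifs read the same on either strand, and every CAGCTG is also a CANNTG. Of 32851 RefSeq promoters of this length, 72.3% held at least 1 CANNTG, 39.6% held 2 or more and 16.3% held CAGCTG, so the matches describe the letters of these windows only.
Myh8: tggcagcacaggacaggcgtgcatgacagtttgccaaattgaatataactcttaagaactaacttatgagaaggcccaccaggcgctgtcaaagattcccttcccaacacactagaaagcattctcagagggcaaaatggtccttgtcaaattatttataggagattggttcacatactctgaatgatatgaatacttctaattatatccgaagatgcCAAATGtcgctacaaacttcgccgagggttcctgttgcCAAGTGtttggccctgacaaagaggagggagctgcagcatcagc
Myl4: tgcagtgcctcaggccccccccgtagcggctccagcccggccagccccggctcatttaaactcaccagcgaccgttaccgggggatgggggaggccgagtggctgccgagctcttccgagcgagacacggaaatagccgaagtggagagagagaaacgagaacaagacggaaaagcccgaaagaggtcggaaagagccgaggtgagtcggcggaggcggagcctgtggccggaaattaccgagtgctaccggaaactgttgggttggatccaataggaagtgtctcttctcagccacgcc
Ache: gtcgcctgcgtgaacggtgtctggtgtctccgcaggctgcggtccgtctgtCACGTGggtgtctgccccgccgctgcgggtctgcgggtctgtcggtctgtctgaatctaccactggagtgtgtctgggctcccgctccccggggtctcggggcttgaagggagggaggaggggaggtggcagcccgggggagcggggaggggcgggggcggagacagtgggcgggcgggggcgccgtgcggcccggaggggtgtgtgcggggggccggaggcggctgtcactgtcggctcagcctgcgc

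The values are the authors' array intensities, scaled by them to a common mean. On the 10 arrays the median intensity was 332.2 to 362, and 76.6% to 83.4% of the probe sets lay above a floor of 64.7. The floor is the median over arrays of their 20th percentile, so that share follows largely from how it was set. As a check of the tissue label, genes of abundant muscle proteins were placed among all genes in untreated muscle. Ckm, Acta1, Mb, Pvalb and Tnnc2 lay above the 99th percentile, and Des and Mylpf lay lower, at 94.03 and 93.36. The manufacturer's b-actin probe set at the 3' end of the transcript lay at 0.571 to 1.06 of the one at the 5' end on 9 of the 10 arrays and at 0.233 on 5 d replicate 1. It lay at 0.0452 and 0.0184 on the 4 d arrays. The 5.5 d replicate 2 array correlated least with the other arrays of its window (mean r = 0.954, a description over probe sets). The probe set counts, steps, lists and named genes were therefore also computed without both of these arrays.

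Between the windows, 925 of 11997 probe sets (7.71%) passed the test, 444 higher and 481 lower at 4.5 to 5.5 d. The test was limma with 1 mean per time point and the Benjamini-Hochberg adjustment over all probe sets, and a call is an adjusted p under 0.05. With each gene read from its brightest probe set, 741 of 8087 genes (9.16%) passed, of which 356 rose (4.4%) and 385 fell (4.76%). The counts of every gene list below stand beside these shares of all genes. The median log2 change of all genes was 0, and 138 of the called genes changed more than 2-fold. For 734 genes (9.08%) all 6 later arrays lay on one side of all 4 earlier ones, and 434 of these were also called, 216 higher and 218 lower. Of 39 called genes named below that have other probe sets, 14 of the 46 other probe sets gave the same call. Of the 32 that did not, 14 averaged over 4 times the floor in a window. They are those of Adam10, Bmp1, Ckm, Ctsc, Gal, Hspb8, Hspd1, Lcn2, Mki67, Psmd11 (2 probe sets), Rgs5, Serpinf1 and Tnc, and those of Ckm, Lcn2, Mki67 and 1 of Psmd11 went the other way (-0.18, 0.11, 0.12 and 0.34 on the log2 scale). The muscle is a mixture of cells, so fewer cells of a type and less RNA per cell cannot be told apart in any of these values.

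How many probe sets were called rested on the 3 d arrays and on how the spread was measured. Without 3 d, 88 probe sets were called, 61 higher and 27 lower. Without 3.5 d, 1023 were called, and without 5.5 d, 386. With arrays of a time point that share a code number averaged first, which joins the 2 arrays of each later time, 2 were called, and with time points averaged first limma called 0, where 1608 had an unadjusted p under 0.05. With time point as a random block, which counts the spread between the times of a window as error, 195 were called (113 higher, 82 lower). Leaving out a single earlier array gave 547 (3 d replicate 1), 502 (3 d replicate 2), 564 (3.5 d replicate 1) and 534 (3.5 d replicate 2), and without 5 d replicate 1 and 5.5 d replicate 2 together 472 were called. On the first principal component of the 10 arrays, which held 29.8% of their variance, 3 d stood at -36.4 and -35.7, 3.5 d at -11.8 and -4.45, 4.5 d at -1.34 and 6.28, 5 d at 14 and 6.85 and 5.5 d at 23.2 and 39.4. The 3.5 d arrays thus stood between 3 d and the later window.

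Myog and Myod1, which start differentiation, fell, while Myf6 and Mef2c rose. Myog, the factor that drives myoblasts out of division and into differentiation, read 7870.3 and 13518 at 3 d, 11968 and 10574 at 3.5 d and 3572 to 6158 (median 4430.3) later, so that every later array lay below every earlier one. It fell by 1.27 on the log2 scale (SE 0.22, adjusted p = 3.9e-04), yet all 10 arrays stood above the controls at 898 and 664. Myod1, which commits satellite cells to muscle, read 6991 and 8613 at 3 d, 6052 and 7415 at 3.5 d and 3408 to 5117 (median 3756) later, again without overlap (log2 change -0.85, SE 0.13, adjusted p = 9.7e-05). Both falls also passed without 3 d (adjusted p = 0.012 and 0.028) and with time point as a random block (adjusted p = 0.038 and 0.038).

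Myf6, the regulator found in mature fibres, moved the other way, from 693 and 375 at 3 d and 1181 and 1327 at 3.5 d to 1972 to 2662 (median 2293) later (log2 change 1.51, SE 0.25, adjusted p = 1.4e-04). Mef2c, a partner of the myogenic factors that drives fibre genes, read 1111 and 1131 at 3 d, 2519.8 and 2188 at 3.5 d and 3219 to 4405 (median 3588) later (log2 change 1.17, SE 0.16, adjusted p = 2.0e-05), and all 4 of its probe sets rose. The later arrays of both genes lay above all earlier ones and still below the controls (3240.1 and 3072 for Myf6 and 5855 and 5851 for Mef2c). Without 3 d neither passed (adjusted p = 0.28 and 0.23). Myf5, a factor of committed satellite cells, read 173 and 138 at 3 d, 389 and 347 at 3.5 d and 204 to 435 (median 341) later and did not pass (log2 change 0.44, SE 0.25, adjusted p = 0.36). Pax7, a factor of resting satellite cells, was not among the genes tested. Of 34 genes in the list of myogenic regulators and satellite cell genes, 3 rose and 3 fell, with a median log2 change of -0.04. The third rise was Msx1, a repressor of differentiation (log2 change 0.76, SE 0.15, adjusted p = 0.0013). The third fall was Id2, an inhibitor of the myogenic factors (-0.55, SE 0.16). This call ended when 1 array was left out (without any of 7 arrays, highest adjusted p = 0.16).

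Genes of cell adhesion and fusion showed no common direction, with 1 rise and 3 falls among 29 and a median of -0.05. These are 3.45% and 10.3%, against 4.4% and 4.76% of all genes. Cdh2, the N-cadherin that joins myoblasts (-0.66, SE 0.17), Rac1, a small GTPase of the actin cytoskeleton (-0.44, SE 0.11), and Mrc1, the mannose receptor (-0.78, SE 0.23), fell, and the tetraspanin Cd81 rose (0.28, SE 0.09). All 4 calls ended when single arrays were left out, for Cdh2 (without 3.5 d replicate 1 or 3 d replicate 2, highest adjusted p = 0.085), Rac1 (without 3.5 d replicate 2 or 3 d replicate 2, highest adjusted p = 0.13), Mrc1 (without any of 7 arrays, highest adjusted p = 0.20) and Cd81 (without any of 8 arrays, highest adjusted p = 0.28). Snai2, a repressor of the Snail family, read 1559.8 and 1674 at 3 d, 1499 and 1702 at 3.5 d and 1709 to 2029 (median 1881) later and did not pass (log2 change 0.22, SE 0.14, adjusted p = 0.40), although its later arrays lay just above the earlier ones.

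Part of the genes of the first sarcomeres rose. Of 17 developmental sarcomere genes, 7 rose and none fell, against 4.4% of all genes higher, with a median log2 change of 0.47. Myh8, the perinatal myosin heavy chain, whose promoter is printed above, read 187 and 281 at 3 d, 1492 and 741 at 3.5 d and 2096 to 4371 (median 2372) later. Even the lowest later array stood above the highest earlier one, and the mean was 5.54-fold higher (log2 change 2.47, SE 0.18, adjusted p = 1.5e-10). Its call also passed without 3 d (adjusted p = 0.001), but not with time point as a random block (adjusted p = 0.064), and a dim second probe set did not pass (adjusted p = 0.82).

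Myh3, the embryonic myosin heavy chain, was already high at 3.5 d. It read 1324 and 2413 at 3 d, 8858 and 6739.9 at 3.5 d and 7823 to 11646 (median 8226) later, against 160.1 and 166 in the controls. The 3.5 d arrays overlapped the later window, the change over the windows was 1.24 (SE 0.25, adjusted p = 0.002), and without 3 d the adjusted p was 0.98. Myl4, the light chain of embryonic muscle and the atrium, read 1734 and 3056 at 3 d, 11290 and 7543 at 3.5 d and 13021 to 18395 (median 16694) later (log2 change 1.80, SE 0.23, adjusted p = 5.7e-06). Its later arrays lay above all earlier ones, and it too did not pass without 3 d (adjusted p = 0.29). Csrp3, a Z disc protein of growing muscle (1.35, SE 0.31), Tnni1, slow troponin I, which is also the form of immature fibres (0.95, SE 0.26), the light chain gene Myl6b (0.92, SE 0.21) and Acta2, smooth muscle actin (0.47, SE 0.13), completed the rises. The calls of Csrp3 (without 3.5 d replicate 2 or 3 d replicate 2, highest adjusted p = 0.073) and Tnni1 (without any of 3 arrays, highest adjusted p = 0.084) ended when single arrays were left out. Myl6b and Acta2 were not looked at with single arrays left out. Actc1, the cardiac actin of immature fibres, read 13068 and 18483 at 3 d, 23508 and 23994 at 3.5 d and 18302 to 45021 (median 21255) later and did not pass (log2 change 0.38, SE 0.26, adjusted p = 0.47). Without 3 d, 1 of the 17 genes rose, and with time point as a random block 0.

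**Figure D1:**
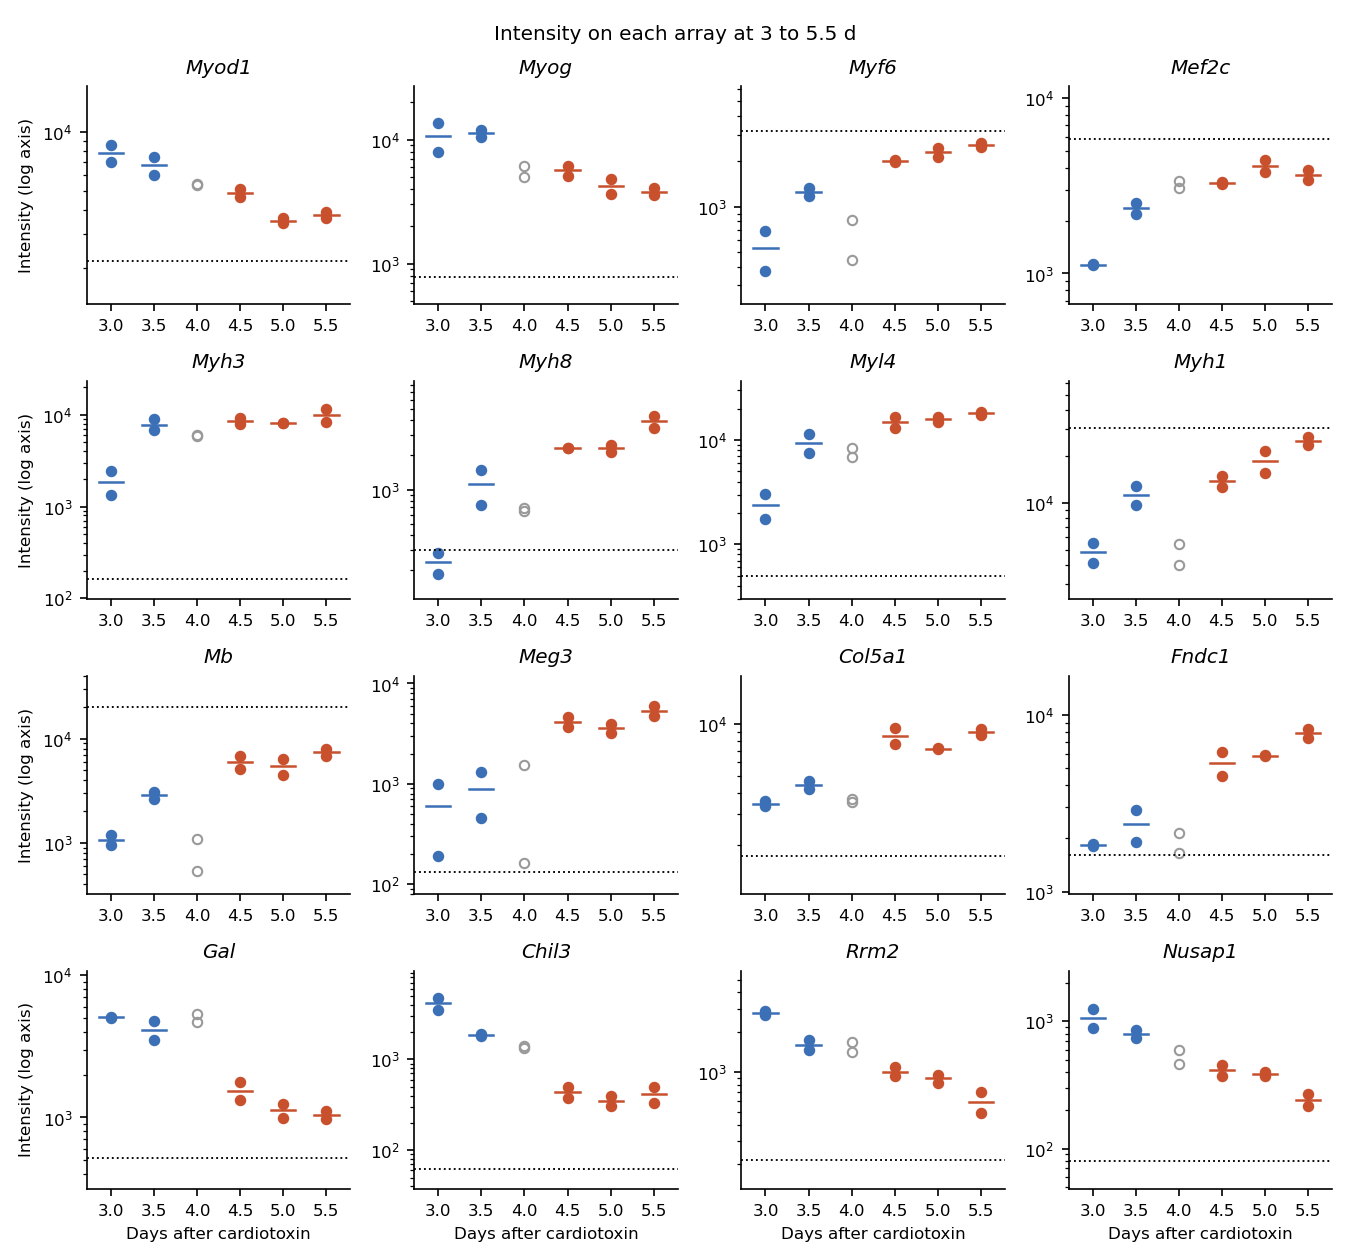
Intensity on each array (log axis) against days after cardiotoxin for 16 genes, with blue points at 3 and 3.5 d, red points at 4.5 to 5.5 d, hollow grey points at 4 d, which took no part in the comparison, short bars at time point means and a dotted line at the mean of the 2 untreated controls. Myog, Myod1, Gal, Chil3, Rrm2 and Nusap1 lay lower on all later arrays, Myh8, Myl4, Meg3, Col5a1 and Fndc1 higher on all, and Myh3 had nearly reached its later level at 3.5 d.

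Adult contractile genes rose in part. Of 14 adult fast contractile genes 4 rose and none fell (median 0.59), and of 12 slow contractile genes 4 rose and none fell (median 0.74). Myh1, the fast IIx myosin heavy chain, read 5516 and 4096 at 3 d, 12894 and 9773 at 3.5 d and 12799 to 26866 (median 18782) later (log2 change 1.35, SE 0.27, adjusted p = 0.0014), with controls at 29497 and 31938. Tnnt3 and Tnni2, fast troponins T and I, rose by 1.25 (SE 0.24) and 0.85 (SE 0.19), and Casq1, the calcium store protein of fast fibres, by 1.35 (SE 0.42). Mb, myoglobin, the oxygen store of slow fibres, read 1181 and 947 at 3 d, 3081 and 2652 at 3.5 d and 4526 to 7927 (median 6617) later, with every later array above every earlier one (log2 change 1.83, SE 0.23, adjusted p = 5.7e-06). Atp2a2, the calcium pump of slow and young fibres (1.24, SE 0.33), and Tpm2, beta-tropomyosin (0.64, SE 0.20), rose as well.

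The other adult myosins did not pass. Myh4, the fast IIb myosin heavy chain, read 15725 and 8552 at 3 d, 21329 and 31138 at 3.5 d and 8402 to 33746 (median 15390) later, and its windows overlapped (log2 change -0.09, SE 0.41, adjusted p = 1.00). Myh7, the slow myosin heavy chain, read 1849 and 826 at 3 d, 2032 and 1729.7 at 3.5 d and 774 to 5856 (median 2743) later, where both 5.5 d arrays (5856 and 4556) were the highest (log2 change 0.56, SE 0.60, adjusted p = 0.74). Myh2, the fast IIa myosin heavy chain, lay at or near the floor of 64.7 on all 10 arrays, with a highest value of 83.6. Acta1, the actin of adult fibres, ran from 3130.3 to 36818 within the later window alone (log2 change -1.01, SE 0.88, adjusted p = 0.63). Among the rises, single arrays ended the calls of Casq1 (without any of 10 arrays, highest adjusted p = 0.16), Atp2a2 (without 3.5 d replicate 2 or 3 d replicate 2, highest adjusted p = 0.098) and Tpm2 (without any of 8 arrays, highest adjusted p = 0.14). Without 3 d none of the genes in either list rose, and with time point as a random block 0 fast and 1 slow contractile gene did.

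Scaffold genes of the sarcomere rose in part. Of 20 genes of the Z disc, titin and thick filament scaffold 10 rose and none fell, with a median of 0.77. Myoz1, a Z disc protein of fast fibres that binds calcineurin, read 1572 and 1111 at 3 d, 2888 and 5978 at 3.5 d and 6706 to 14475 (median 9819) later (log2 change 2.08, SE 0.27, adjusted p = 5.8e-06), and its 6 later arrays lay above the 4 earlier ones. Myom1, which cross-links thick filaments at the M band, read 876 and 533 at 3 d, 2284 and 1962 at 3.5 d and 2417 to 3779 (median 3078) later (log2 change 1.36, SE 0.26, adjusted p = 0.001). Ldb3, which anchors the Z disc, rose by 1.17 (SE 0.34), but its call ended when single arrays were left out (without any of 5 arrays, highest adjusted p = 0.17). Beside Csrp3, given above, the other rises were the muscle protease Capn3 (1.00, SE 0.17), the methyltransferase Smyd1 (0.93, SE 0.26), Nrap (0.78, SE 0.20), Myom2 of the M band (0.76, SE 0.12), Pdlim7 (0.70, SE 0.15) and Fhl2 (0.68, SE 0.11). Without 3 d, 1 of these genes rose, and with time point as a random block 1.

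Genes of the membrane systems that couple nerve to contraction rose in part. Of 22 genes of excitation and calcium release 7 rose and none fell (median 0.61). Ryr1, the calcium release channel, read 2728 and 2280.1 at 3 d, 5503 and 5254 at 3.5 d and 5448 to 10062 (median 7517) later (log2 change 1.04, SE 0.23, adjusted p = 0.0035), still below the controls at 31049 and 39447. The calcium channel subunits Cacna1s (0.92, SE 0.20), Cacna2d1 (0.86, SE 0.22) and Cacng1 (0.80, SE 0.19) and the calcium-binding Hrc (0.97, SE 0.18) rose too. Of 21 genes of the acetylcholine receptor and synapse 3 rose and none fell (median -0.02). Ache, the enzyme that breaks down acetylcholine, read 233 and 121 at 3 d, 702 and 358 at 3.5 d and 518 to 1277 (median 922) later (log2 change 1.63, SE 0.36, adjusted p = 0.0042). Its windows overlapped through 3.5 d replicate 1. Colq, the collagen tail that anchors it, rose by 1.04 (SE 0.33). This call ended when single arrays were left out (without any of 7 arrays, highest adjusted p = 0.35). Lamb2, a laminin of the synapse, rose by 0.55 (SE 0.13), and its call ended without 3.5 d replicate 2 (adjusted p = 0.055).

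The fetal and adult subunits of the acetylcholine receptor, which replace each other as fibres mature, did not pass. Chrng, the fetal subunit, read 2173 and 2785 at 3 d, 4347 and 3786 at 3.5 d and 1929.7 to 3180.4 (median 2441) later, highest at 3.5 d (log2 change -0.35, SE 0.33, adjusted p = 0.67). Chrne, the adult subunit, read 1059 and 542 at 3 d, 430.3 and 417 at 3.5 d and 307 to 1391 (median 622) later (log2 change 0.10, SE 0.37, adjusted p = 0.99). Neither passed, and both windows overlapped. Of 20 genes of the dystrophin complex and fibre membrane 4 rose and none fell (median 0.22), namely Sgca, alpha-sarcoglycan (1.13, SE 0.26), Lama2, the laminin chain of the fibre's basement membrane (0.87, SE 0.18), Sspn, sarcospan (0.85, SE 0.24), and Sgce, epsilon-sarcoglycan (0.63, SE 0.11). The call of Sspn ended when single arrays were left out (without any of 6 arrays, highest adjusted p = 0.18). Without 3 d, none of the genes of these 3 lists rose, and with time point as a random block 0 of the 22, 0 of the 21 and 2 of the 20 did.

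Genes of fuel use rose in part. Of 65 genes of the respiratory chain and citric acid cycle 17 rose and none fell, with a median of 0.40. Cox6a2, the muscle form of a cytochrome oxidase subunit, read 3032 and 3061 at 3 d, 5374 and 7823 at 3.5 d and 6517 to 15960 (median 12350) later (log2 change 1.34, SE 0.24, adjusted p = 3.8e-04), against 41222 and 42924 in the controls. Cox7a1, another muscle subunit, rose by 1.41 (SE 0.36), Ndufc1, of complex I, by 0.91 (SE 0.23) and Cox8b by 0.88 (SE 0.24), and the other rises lay between 0.46 (Ndufv1) and 0.73 (Atp5d). With single arrays left out, calls ended for Cox7a1 (without 3.5 d replicate 1 or 3 d replicate 2, highest adjusted p = 0.10), Ndufc1 (without 3.5 d replicate 2, highest adjusted p = 0.062) and Cox8b (without any of 4 arrays, highest adjusted p = 0.093). Of 25 genes of fatty acid uptake and oxidation 3 rose and none fell (median 0.25). Fabp3, the fatty acid carrier of muscle, read 317 and 328 at 3 d, 763 and 539.6 at 3.5 d and 1462 to 3199 (median 2027) later, which is 4.63-fold higher with no overlap (log2 change 2.21, SE 0.32, adjusted p = 2.7e-05). It passed without 3 d as well (adjusted p = 0.036). Acaa2, of fatty acid oxidation, and Ppara, the nuclear receptor that regulates it, rose by 0.54 and 0.81. Without single arrays these calls ended, for Acaa2 (without any of 9 arrays, highest adjusted p = 0.18) and Ppara (without any of 8 arrays, highest adjusted p = 0.33).

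Glycolysis and glycogen genes rose in 9 and fell in 1 of 26 (median 0.15). Pgam2, the muscle phosphoglycerate mutase, read 1767 and 1356 at 3 d, 4809.8 and 5234 at 3.5 d and 8729.8 to 12906 (median 10264) later (log2 change 1.91, SE 0.34, adjusted p = 4.0e-04). Pfkm, the muscle phosphofructokinase, read 3562 and 2845 at 3 d, 8449 and 11311 at 3.5 d and 9903 to 16646 (median 13012) later (log2 change 1.22, SE 0.22, adjusted p = 4.5e-04), so that its 3.5 d arrays already reached the later window. Pygm, glycogen phosphorylase, rose by 1.22 (SE 0.29) and Gpd1, glycerol phosphate dehydrogenase, by 0.96 (SE 0.27). Pgk1, phosphoglycerate kinase, which is made in all cells, was the fall (-0.43, SE 0.11). Leaving out single arrays ended the calls of Pygm (without 3.5 d replicate 1 or 3 d replicate 2, highest adjusted p = 0.099), Gpd1 (without any of 6 arrays, highest adjusted p = 0.15) and Pgk1 (without any of 3 arrays, highest adjusted p = 0.11). Of 15 genes of creatine and adenylate energy transfer 6 rose and none fell (median 0.49). Ak1, the adenylate kinase of muscle, read 1271 and 1330 at 3 d, 3491 and 3865 at 3.5 d and 5803 to 10032 (median 6628) later (log2 change 1.70, SE 0.25, adjusted p = 3.1e-05). Ckm, muscle creatine kinase, read 1433 and 823 at 3 d, 2419 and 5012 at 3.5 d and 3153 to 7246 (median 4520) later (log2 change 1.29, SE 0.24, adjusted p = 6.7e-04). Ckmt2, the mitochondrial form, rose by 1.54 (SE 0.25). Without 3 d, 0 of the 65, 1 of the 25, 0 of the 26 and 0 of the 15 rose, and with time point as a random block 2, 1, 0 and 1 did. Without 5.5 d these counts were 3, 1, 2 and 5.

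**Figure D2:**
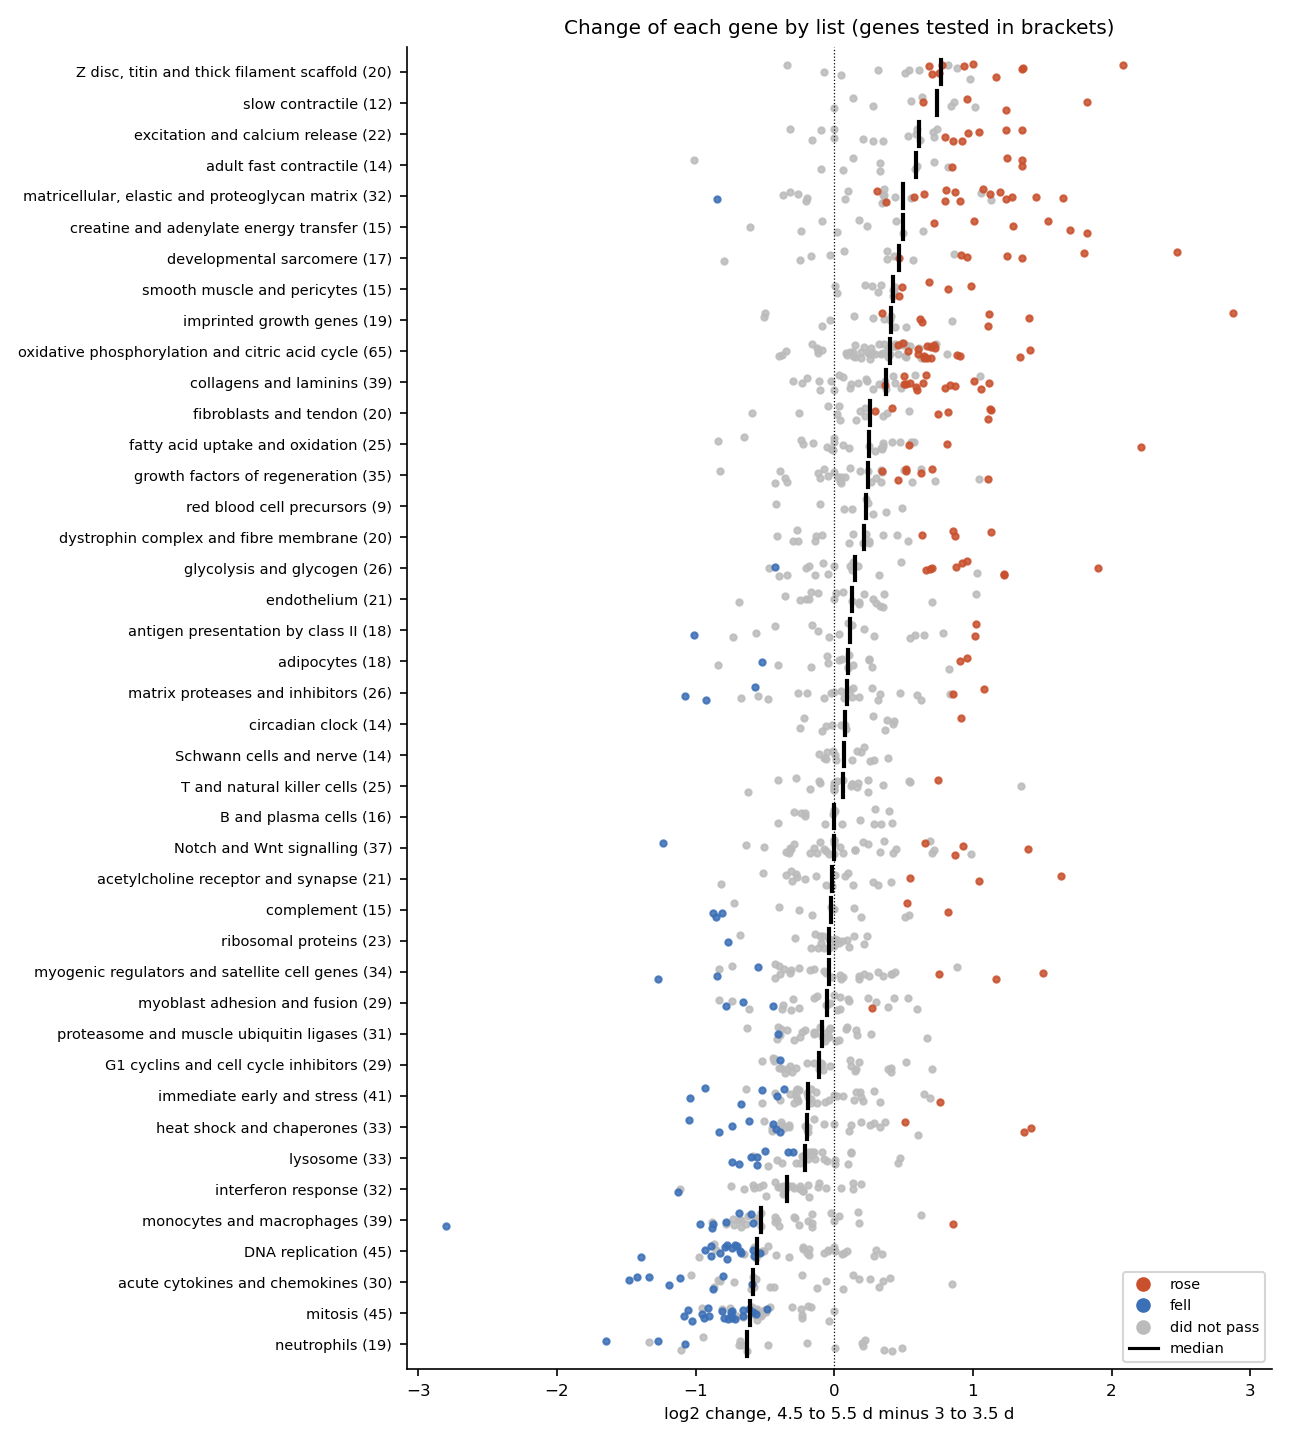
Log2 change from 3 to 3.5 d to 4.5 to 5.5 d (horizontal axis) for every tested gene of 42 lists (rows), red where a gene rose, blue where it fell, grey where it did not pass the test, with a black bar at each list's median. The lists of sarcomere scaffold, slow contractile and calcium release genes have medians above 0.6. Those of mitosis, DNA replication, cytokines, neutrophils, and monocytes and macrophages have medians below -0.5.

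Genes of dividing cells fell in part. Of 45 DNA replication genes 16 fell and none rose (median -0.55), and of 45 mitosis genes 21 fell and none rose (median -0.61), against 4.76% of all genes lower. Rrm2, the ribonucleotide reductase subunit that supplies DNA bases, read 2711 and 2912 at 3 d, 1737 and 1456 at 3.5 d and 485 to 1088 (median 879) later, and even the highest later array lay below the lowest earlier one (log2 change -1.39, SE 0.19, adjusted p = 1.9e-05). Pcna, the sliding clamp of DNA polymerase, fell by 0.93 (SE 0.25), and Mcm10 and Prim2, of the start of replication, fell by 0.89 and 0.89. Calls that rested on single arrays were those of Pcna (without any of 3 arrays, highest adjusted p = 0.086), Mcm10 (without any of 7 arrays, highest adjusted p = 0.18) and Prim2 (without any of 8 arrays, highest adjusted p = 0.18). Birc5, survivin, of the spindle, read 1528 and 1306 at 3 d, 922 and 1009 at 3.5 d and 285 to 758 (median 607) later (log2 change -1.09, SE 0.23, adjusted p = 0.0029). Aurka, the kinase of the spindle poles, read 841 and 873 at 3 d, 450.2 and 527 at 3.5 d and 245 to 423 (median 307) later (log2 change -1.03, SE 0.20, adjusted p = 9.6e-04). Kif2c, a motor of the centromere, read 1144 and 1179.5 at 3 d, 834 and 891 at 3.5 d and 338 to 687 (median 541) later (log2 change -0.95, SE 0.18, adjusted p = 6.6e-04). For each of these 3 mitotic genes all later arrays lay below all earlier ones.

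Nusap1, a spindle protein outside the list, read 1247 and 885 at 3 d, 848 and 742 at 3.5 d and 215 to 457 (median 371) later, one of the largest falls (log2 change -1.44, SE 0.29, adjusted p = 0.0017). A dim second probe set did not pass (adjusted p = 0.98). Mki67, the marker of dividing cells, fell by 0.91 (SE 0.21, adjusted p = 0.0049) on the brighter of 2 probe sets and read 0.12 (adjusted p = 0.85) on the other, whose windows overlapped. Cdk1, the kinase that starts mitosis, read 2176 and 1833 at 3 d, 1433 and 1281 at 3.5 d and 931 to 1369 (median 1171) later and did not pass (log2 change -0.50, SE 0.37, adjusted p = 0.52). Ccna2, cyclin A2, fell by 0.58 (SE 0.18). This call ended when single arrays were left out (without any of 9 arrays, highest adjusted p = 0.14). Hmgb2, a chromatin protein of dividing cells, read 556 and 591 at 3 d, 393 and 410.3 at 3.5 d and 168 to 329 (median 225) later (log2 change -1.05, SE 0.23, adjusted p = 0.004). Among 29 genes of G1 cyclins and cell cycle inhibitors none rose and 1 fell, Cdk2 (-0.39, SE 0.11), whose call ended too (without any of 8 arrays, highest adjusted p = 0.14). Ccnd1, cyclin D1, read 3638 and 3137 at 3 d, 1989.5 and 1805 at 3.5 d and 1432 to 2105 (median 1979.5) later and did not pass (log2 change -0.44, SE 0.17, adjusted p = 0.12). Rrm2, Birc5, Aurka, Kif2c and Nusap1 were highest on both 3 d arrays and lay between 3 d and the later window on both 3.5 d arrays, and without 3 d none of the genes of the replication and mitosis lists passed. With time point as a random block 1 replication gene and 0 mitosis genes fell, and without 5.5 d 9 and 4 fell.

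Chaperone genes moved both ways. Of 33 heat shock and chaperone genes 3 rose and 7 fell (median -0.20). Hsp90aa1, the inducible cytosolic Hsp90, read 11036 and 12434 at 3 d, 8559 and 7658 at 3.5 d and 3624 to 6056 (median 4861) later (log2 change -1.05, SE 0.16, adjusted p = 4.7e-05). Cct8, of the CCT ring that folds actin and tubulin, read 2477 and 2244 at 3 d, 2658 and 2155 at 3.5 d and 1155 to 1973 (median 1406) later (log2 change -0.73, SE 0.15, adjusted p = 0.0015). Cct4 (-0.44, SE 0.11) and Cct5 (-0.42, SE 0.09) of the same ring fell as well. Hspd1, the mitochondrial Hsp60, and Pdia4, of the endoplasmic reticulum, fell by 0.83 and 0.62. Hspa1a, an inducible Hsp70, read 356 and 321 at 3 d, 662 and 537 at 3.5 d and 613 to 3162 (median 1133) later (log2 change 1.37, SE 0.29, adjusted p = 0.0024). Dnajb5, a co-chaperone, and Hspb8, a small heat shock protein of muscle, rose by 1.42 and 0.51. Single arrays ended the calls of Hspd1 (without any of 4 arrays, highest adjusted p = 0.07), Pdia4 (without any of 6 arrays, highest adjusted p = 0.081), Dnajb5 (without any of 9 arrays, highest adjusted p = 0.20) and Hspb8 (without any of 4 arrays, highest adjusted p = 0.083). Of 23 ribosomal protein genes 1 fell, Rpl13a (-0.77, SE 0.19), and of 31 genes of the proteasome and muscle ubiquitin ligases 1 fell, Psmd11 (-0.40, SE 0.13), with no rise in either list (medians -0.04 and -0.09). At 4.35% and 3.23% these counts are below the 4.76% of all genes lower. Both of these calls ended when single arrays were left out, for Rpl13a (without 3.5 d replicate 2 or 3 d replicate 2, highest adjusted p = 0.071) and Psmd11 (without any of 8 arrays, highest adjusted p = 0.18).

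Macrophage genes were lower in part. Of 39 genes of monocytes and macrophages 1 rose and 8 fell (median -0.53), and their summed intensity ran from 201030 to 243260 on the earlier arrays and from 162030 to 188340 on the later ones, against 17763 and 24272 in the controls. Chil3, a chitinase-like protein of activated macrophages, gave the largest fall of all named genes. It read 4724 and 3539 at 3 d, 1902 and 1786 at 3.5 d and 309.5 to 498 (median 387) later, with a gap between the windows (log2 change -2.80, SE 0.27, adjusted p = 3.9e-08). It passed without 3 d (adjusted p = 4.7e-04) and with time point as a random block (adjusted p = 0.015). Ccr2, the receptor by which monocytes follow Ccl2, read 7377 and 6224 at 3 d, 5685 and 5006 at 3.5 d and 2109 to 4366 (median 3122) later (log2 change -0.97, SE 0.25, adjusted p = 0.012). C3ar1, the receptor for complement C3a, read 5880.4 and 5921 at 3 d, 4705 and 4580 at 3.5 d and 2436 to 3378 (median 2779.6) later (log2 change -0.88, SE 0.16, adjusted p = 6.7e-04). Cd68, a protein of macrophage lysosomes, read 11767 and 13857 at 3 d, 9188 and 10155 at 3.5 d and 6183 to 8066 (median 6778) later (log2 change -0.69, SE 0.17, adjusted p = 0.0093). Later arrays lay below earlier ones for all 4 genes.

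Other macrophage genes did not pass. Csf1r, the receptor for macrophage growth factor, changed by -0.28 (SE 0.15) and Adgre1, the F4/80 antigen, by -0.41 (SE 0.23), and the complement genes C1qa, C1qb and C1qc by -0.16, -0.25 and -0.02, none of which passed. The rise in the list was Mmp14, a membrane metalloprotease that fibroblasts also make (log2 change 0.86, SE 0.13, adjusted p = 6.6e-05). Lst1, of white blood cells, fell by 0.88. With single arrays left out, calls ended for Ccr2 (without 3.5 d replicate 1 or 3 d replicate 1, highest adjusted p = 0.065), Cd68 (without 3.5 d replicate 2 or 3 d replicate 2, highest adjusted p = 0.064) and Lst1 (without any of 9 arrays, highest adjusted p = 0.21). Without 3 d, 1 gene of the list rose and 1, Chil3, fell, and without 5.5 d 1 rose and 3 fell.

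Of 30 acute cytokines and chemokines 8 fell and none rose (median -0.58). Ccl2, which draws monocytes, read 6412 and 5235 at 3 d, 3368 and 3777 at 3.5 d and 1084 to 2832 (median 1877) later (log2 change -1.34, SE 0.21, adjusted p = 1.2e-04). Cxcl14, a chemokine of tissue cells, read 1148 and 1065 at 3 d, 1198 and 1361 at 3.5 d and 287 to 755 (median 609) later, without overlap (log2 change -1.19, SE 0.18, adjusted p = 4.4e-05). It passed without 3 d (adjusted p = 0.0021). Cxcl5, which draws neutrophils, fell by 1.42 (SE 0.43). Ccl4, of activated macrophages, read 336 and 328 at 3 d, 243 and 92.2 at 3.5 d and 61.1 to 152 (median 69.3) later. It fell by 1.48 (SE 0.42), with 2 of the 6 later arrays at the floor. Without single arrays these calls ended, for Cxcl5 (without any of 8 arrays, highest adjusted p = 0.18) and Ccl4 (without any of 5 arrays, highest adjusted p = 0.19). Of the 30 genes 1 fell without 3 d, 3 without 5.5 d and 0 with time point as a random block. Of 19 neutrophil genes 3 fell and none rose (median -0.63). S100a9, an abundant neutrophil protein, fell by 1.65 (SE 0.52), and Lcn2, lipocalin, fell by 1.27 (SE 0.37). Neither call held with single arrays left out, for S100a9 (without any of 8 arrays, highest adjusted p = 0.22) and Lcn2 (without any of 7 arrays, highest adjusted p = 0.13). Mmp8, the neutrophil collagenase, read 242 and 288 at 3 d and lay at or near the floor on the other arrays (log2 change -1.08, SE 0.25, adjusted p = 0.0057).

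Of 33 lysosome genes 8 fell and none rose (median -0.21), with Ctsc, cathepsin C, falling by 0.74 (SE 0.18), Gusb, beta-glucuronidase, by 0.60 (SE 0.15), Acp2, acid phosphatase, by 0.56 (SE 0.14) and Cd68 as above. Leaving out single arrays ended the calls of Ctsc (without 3.5 d replicate 1, highest adjusted p = 0.072), Gusb (without 3.5 d replicate 1, highest adjusted p = 0.056) and Acp2 (without 3.5 d replicate 1 or 3 d replicate 2, highest adjusted p = 0.064). Of 15 complement genes 2 rose and 3 fell (median -0.02), with the inhibitors Cd55 (0.82, SE 0.20) and Serping1 (0.52, SE 0.11) up and Cfp, properdin (-0.81, SE 0.19), the integrin chain Itgb2 (-0.85, SE 0.26) and C3ar1 down. Calls that rested on single arrays were those of Cd55 (without 3 d replicate 2, highest adjusted p = 0.062) and Itgb2 (without any of 10 arrays, highest adjusted p = 0.16). Of 32 interferon response genes 1 fell, which at 3.12% is below the 4.76% of all genes lower. It was Ifi47, a GTPase, which read 855 and 677 at 3 d, 739 and 743 at 3.5 d and 257 to 486 (median 346) later (log2 change -1.13, SE 0.24, adjusted p = 0.0023).

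Of 18 genes of antigen presentation by class II 2 rose and 1 fell (median 0.12). H2-Eb1, a class II chain, read 1825 and 2034 at 3 d, 2894 and 3194 at 3.5 d and 3961 to 6069.7 (median 5080) later (log2 change 1.02, SE 0.18, adjusted p = 5.6e-04). H2-Aa, a class II chain as well, rose by 1.03 (SE 0.26). This call ended when single arrays were left out (without 3.5 d replicate 2 or 3 d replicate 1, highest adjusted p = 0.088). Ifi30, a reductase that helps to cut antigens, read 6961 and 7526 at 3 d, 6972 and 5869.5 at 3.5 d and 2683 to 3954 (median 3550) later (log2 change -1.01, SE 0.21, adjusted p = 0.0021). Of 25 genes of T and natural killer cells only Thy1, which fibroblasts also make, rose (log2 change 0.75, SE 0.17, adjusted p = 0.0045), and none of 16 genes of B and plasma cells passed (medians 0.07 and 0.00). That single rise is 4% of its list, against 4.4% of all genes higher, and it did not pass without 3.5 d (adjusted p = 0.17). Without 3 d, 0 of the 18 class II genes and 0 of the 33 lysosome genes passed, and without 5.5 d 0 of the 33 did.

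Matrix genes rose in part. Of 39 genes of collagens and laminins 15 rose and none fell (median 0.37), and of 32 matricellular, elastic and proteoglycan genes 15 rose and 1 fell (median 0.50). Lamb3, a laminin chain outside both lists, fell between the windows (log2 change -0.71, adjusted p = 1.2e-05). It did not pass without 3.5 d (-0.04, adjusted p = 0.97) or with time point as a random block (adjusted p = 0.40). Col5a1, of the collagen that starts fibrils, read 3576 and 3344 at 3 d, 4699.7 and 4211 at 3.5 d and 7132 to 9474 (median 8108) later, and both of its probe sets rose (log2 change 1.06, SE 0.11, adjusted p = 2.4e-07). Col8a1, a short-chain collagen, read 1918 and 1528 at 3 d, 3692 and 2346 at 3.5 d and 4089.6 to 5685 (median 5005) later (log2 change 1.11, SE 0.17, adjusted p = 8.5e-05). Col14a1, which sits on fibrils, rose by 1.01 (SE 0.16, adjusted p = 7.8e-05). All later arrays of these 3 genes lay above all earlier ones. Col1a1, the main fibril collagen, read 22052 and 30135 at 3 d, 28183 and 27363 at 3.5 d and 15934 to 38962 (median 22487) later and did not pass (log2 change -0.20, SE 0.22, adjusted p = 0.76). Its dimmer second probe set went the other way and did not pass either (log2 change 0.36, SE 0.16, adjusted p = 0.21). That probe set read 7139 to 7770 on the earlier arrays and 7935 to 13454 later, without overlap.

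Among the proteins that tune the matrix, Tnc, tenascin C of repairing tissue, read 2065 and 1843 at 3 d, 6264 and 3145 at 3.5 d and 7100.2 to 9012 (median 8239) later (log2 change 1.45, SE 0.27, adjusted p = 7.1e-04). Mfap4, of elastic fibres, read 307 and 303 at 3 d, 537 and 488 at 3.5 d and 805 to 2675 (median 1109.8) later (log2 change 1.65, SE 0.30, adjusted p = 6.2e-04). Mfap2, of microfibrils, read 983 and 1440.2 at 3 d, 1342 and 1407 at 3.5 d and 2119 to 4348 (median 3209) later (log2 change 1.28, SE 0.17, adjusted p = 9.2e-06). Ogn, a small leucine-rich proteoglycan, read 2285 and 2297 at 3 d, 3082 and 2799.7 at 3.5 d and 4973 to 7987 (median 6126) later (log2 change 1.24, SE 0.21, adjusted p = 3.4e-04). None of these 4 overlapped between the windows. Tgfbi, a matrix protein induced by transforming growth factor, was the fall (log2 change -0.84, SE 0.19, adjusted p = 0.0057). Fndc1, a fibronectin-domain protein in none of the lists, read 1868 and 1804 at 3 d, 2891 and 1918 at 3.5 d and 4502 to 8262 (median 6013) later (log2 change 1.58, SE 0.14, adjusted p = 1.4e-08). Without 3 d, 5 of the collagen and laminin genes and 3 of the other matrix genes rose, Col5a1 (adjusted p = 0.001), Col14a1 (0.03) and Mfap2 (0.0025) among them, as did Fndc1 (adjusted p = 9.2e-05). With time point as a random block 8 and 5 genes of the 2 lists rose.

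Of 26 matrix proteases and inhibitors 2 rose and 3 fell (median 0.09). Serpinf1, pigment epithelium-derived factor, read 3580.1 and 3395 at 3 d, 3795 and 3382 at 3.5 d and 6543 to 8145 (median 7518) later (log2 change 1.08, SE 0.16, adjusted p = 5.6e-05). Mmp14, which activates other matrix metalloproteases, read 3578 and 3812 at 3 d, 4004 and 4525 at 3.5 d and 6336 to 7699.8 (median 7330.5) later, without overlap. Adam8, a metalloprotease of white cells (-0.92, SE 0.24), Adam10, a membrane sheddase (-0.57, SE 0.18), and Mmp8 fell. Reck, a membrane inhibitor of metalloproteases that is in none of the lists, rose too. It read 413 and 383 at 3 d, 305 and 171 at 3.5 d and 459.7 to 728 (median 617) later (log2 change 0.99, SE 0.19, adjusted p = 8.1e-04). The call of Reck held without 3 d (adjusted p = 0.0017) but not without 3.5 d (0.59, adjusted p = 0.11). Nor did it hold with time point as a random block (adjusted p = 0.10). Single arrays ended the calls of Adam8 (without 3.5 d replicate 2 or 3 d replicate 2, highest adjusted p = 0.056) and Adam10 (without any of 9 arrays, highest adjusted p = 0.17).

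Markers of stromal cells moved with the matrix genes. Of 20 genes of fibroblasts and tendon 7 rose and none fell (median 0.26), and their summed intensity was 35873 to 39450 on the earlier arrays, 37562 to 47058 on the later ones and 60218 and 61488 in the controls. Dpt, dermatopontin (1.13, SE 0.25), Fmod, fibromodulin (1.12, SE 0.13), Fap, a surface protease of activated fibroblasts (0.82, SE 0.15), and Clec3b, tetranectin (1.11, SE 0.26), led the rises. Fmod stands in the matrix list as well, and the call of Clec3b ended without 3 d replicate 2 (adjusted p = 0.14). Of 15 genes of smooth muscle and pericytes 5 rose and none fell (median 0.42), with sums of 15919 to 24491, 24579 to 27990 and, in the controls, 24600 and 27596. Abcc9, a channel subunit, read 365 and 263 at 3 d, 635 and 598 at 3.5 d and 721 to 1088 (median 851) later (log2 change 0.99, SE 0.17, adjusted p = 3.6e-04). It did not pass without 3 d (0.49, adjusted p = 0.44), and the cells in which Abcc9 rose were not tested. Tagln, a protein of smooth muscle, rose by 0.69 (SE 0.15). This call ended without 3 d replicate 1 (adjusted p = 0.085). Smoc2, a matrix protein of these cells, rose by 0.82 (SE 0.14) and Rgs5, a pericyte regulator of G proteins, by 0.49 (SE 0.14), the last a call that ended when single arrays were left out (without any of 7 arrays, highest adjusted p = 0.091). The part of these cells in the rises of matrix and muscle genes was not tested, nor was that of the macrophage markers given above.

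Other cell types gave few calls. Of 21 endothelium genes, 14 genes of Schwann cells and nerve and 9 genes of red blood cell precursors none passed (medians 0.13, 0.07 and 0.23). Of 18 adipocyte genes 2 rose and 1 fell (median 0.10), namely Gpd1, given above, Scd1, a fatty acid desaturase (0.91, SE 0.25), and the falling transcription factor Cebpa (-0.52, SE 0.11). The call of Scd1 ended when single arrays were left out (without any of 3 arrays, highest adjusted p = 0.16).

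Imprinted genes, which are expressed from the copy of 1 parent and act in growth, rose in part, led by Meg3. Of 19 genes 7 rose and none fell (median 0.41). Meg3, a non-coding RNA of the Dlk1 locus, read 1004 and 192 at 3 d, 1326 and 456 at 3.5 d and 3243 to 5959.8 (median 4304) later, against 115 and 151 in the controls. Its change was the largest rise among the named genes (log2 change 2.87, SE 0.40, adjusted p = 2.0e-05), its second probe set rose too, and it passed without 3 d (adjusted p = 0.003). Dlk1, which lies in the same locus on chromosome 12 and encodes a membrane protein of the Notch ligand kind, read 613 and 607 at 3 d, 859.7 and 942 at 3.5 d and 1222 to 2546 (median 1479.7) later (log2 change 1.11, SE 0.14, adjusted p = 6.1e-06). Igf2, the fetal insulin-like growth factor, read 4402 and 6653 at 3 d, 12377 and 11504 at 3.5 d and 14092 to 22072 (median 16214) later (log2 change 1.11, SE 0.13, adjusted p = 1.2e-06), on the brighter of 2 probe sets. Plagl1, a transcription factor of growth, read 254 and 185 at 3 d, 402 and 298 at 3.5 d and 532 to 1002 (median 731) later (log2 change 1.41, SE 0.21, adjusted p = 4.7e-05). No array of the later window reached down to the earlier one for any of these 4 genes. Without 3 d, 2 of the 19 rose.

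Of 35 growth factors of regeneration 7 rose and none fell (median 0.24), among them Igf2, Igfbp6, which binds it (0.71, SE 0.10), Bmp1, a protease that matures collagen and growth factors (0.52, SE 0.10), and Fstl1, follistatin-like protein (0.62, SE 0.16). The call of Fstl1 ended when single arrays were left out (without any of 5 arrays, highest adjusted p = 0.088). Of 37 genes of Notch and Wnt signalling 4 rose and 1 fell (median 0.00). Dkk3, a secreted protein of the Dickkopf family, read 195 and 331 at 3 d, 305 and 331 at 3.5 d and 637 to 1001 (median 714) later (log2 change 1.40, SE 0.21, adjusted p = 4.4e-05). Sfrp4, a secreted Wnt-binding protein (0.93, SE 0.26), the Wnt receptor Fzd2 (0.87, SE 0.22) and the adaptor Dvl1 (0.66, SE 0.19) rose, and Lfng, which modifies Notch, fell (-1.23, SE 0.33). With single arrays left out, calls ended for Sfrp4 (without any of 5 arrays, highest adjusted p = 0.18), Fzd2 (without 3.5 d replicate 1, highest adjusted p = 0.052), Dvl1 (without any of 6 arrays, highest adjusted p = 0.15) and Lfng (without any of 4 arrays, highest adjusted p = 0.13).

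Of 41 immediate early and stress genes 1 rose and 6 fell (median -0.19). Mt1, which binds zinc and copper, read 9151 and 9743 at 3 d, 8816 and 8431 at 3.5 d and 3546 to 6731 (median 4358) later, without overlap (log2 change -0.93, SE 0.13, adjusted p = 1.9e-05). It passed without 3 d (adjusted p = 0.0061). Mt2 fell by 0.68 (SE 0.19), Fosl1, of the Fos family, fell by 1.04 (SE 0.31), and Dusp1, a phosphatase of kinase signalling, rose by 0.77 (SE 0.23). Leaving out single arrays ended the calls of Mt2 (without any of 7 arrays, highest adjusted p = 0.13), Fosl1 (without any of 9 arrays, highest adjusted p = 0.14) and Dusp1 (without any of 7 arrays, highest adjusted p = 0.16). Of 14 circadian clock genes 1 rose, Tef (0.91, SE 0.28). This call ended when single arrays were left out (without any of 8 arrays, highest adjusted p = 0.14). The labels give no hour of collection.

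**Figure D3:**
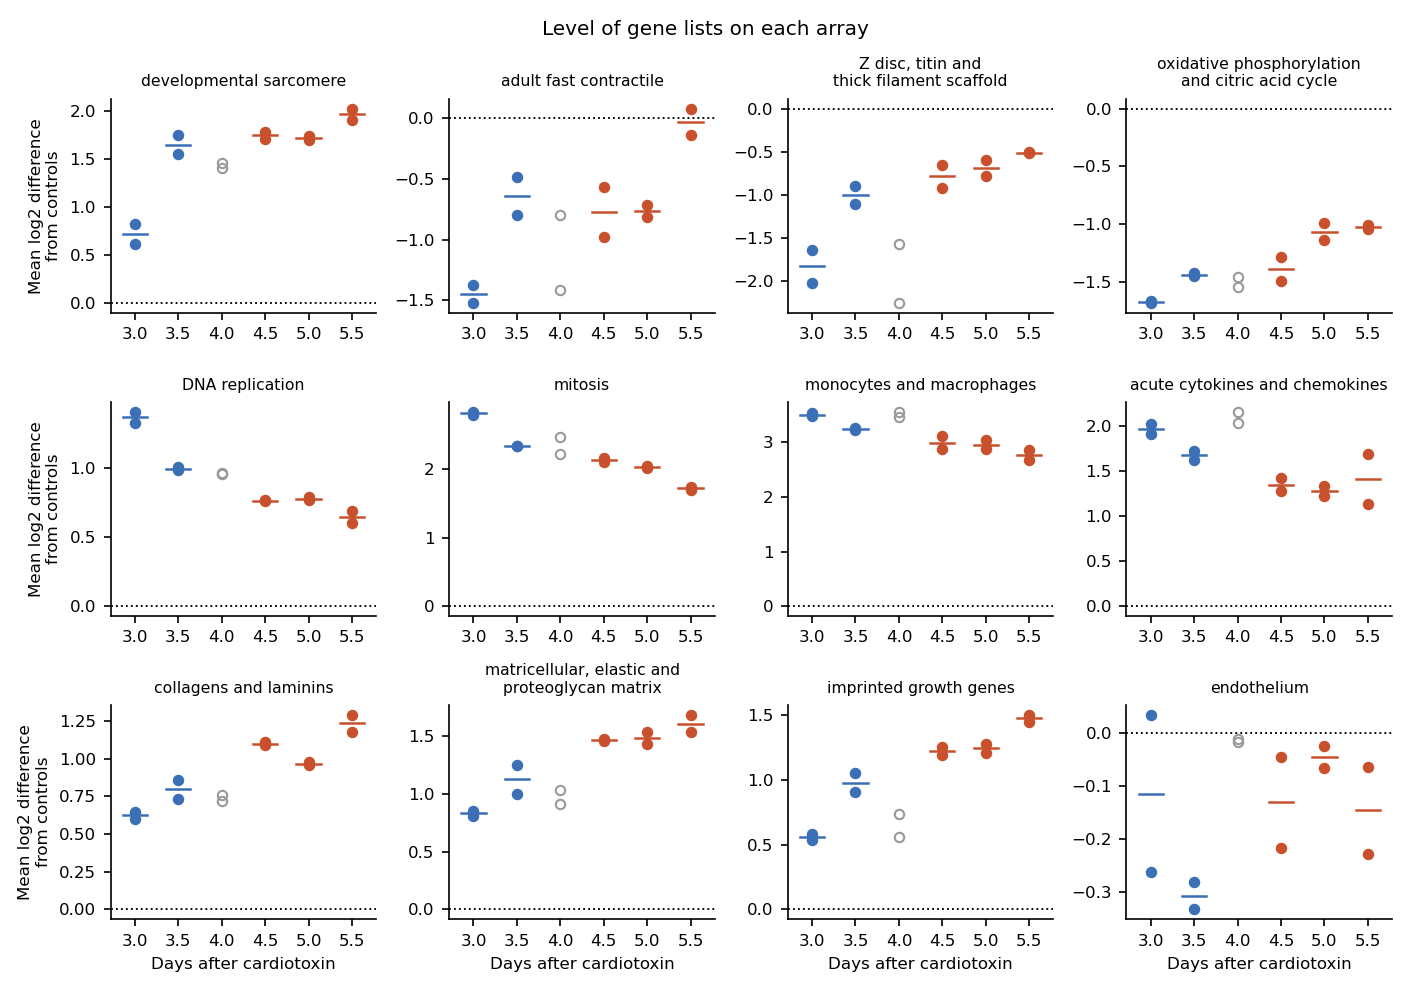
Mean log2 difference from the untreated controls over the genes of 12 lists (vertical axis) on each array against days after cardiotoxin, with blue points at 3 and 3.5 d, red points at 4.5 to 5.5 d and hollow grey points at 4 d. Macrophage genes averaged 3.22 to 3.53 above the controls on the earlier arrays and 2.68 to 3.11 on the later ones. Collagen and laminin genes averaged 0.6 to 0.859 above the controls and then 0.958 to 1.29.

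Beside the lists, genes of other kinds were among the largest changes. Gal, the neuropeptide galanin, read 5093 and 5053 at 3 d, 3507 and 4742 at 3.5 d and 974 to 1767 (median 1182) later (log2 change -1.91, SE 0.13, adjusted p = 5.1e-11). It also passed without 3 d (adjusted p = 1.8e-07). A dimmer second probe set did not pass (adjusted p = 0.54). Maz, a zinc finger factor, read 538 and 483 at 3 d, 444 and 455 at 3.5 d and 68.2 to 261 (median 144) later (log2 change -1.87, SE 0.31, adjusted p = 1.7e-04). Sla, an adaptor of white blood cells, read 474 and 495 at 3 d, 492 and 532 at 3.5 d and 53.2 to 336 (median 100.3) later (log2 change -2.10, SE 0.47, adjusted p = 0.0042). Slfn4, a Schlafen gene of myeloid cells, read 4055 and 2924 at 3 d, 1899 and 2083 at 3.5 d and 437 to 1635 (median 836) later (log2 change -1.51, SE 0.35, adjusted p = 0.0064). For these 4 genes all later arrays lay below all earlier ones. Ms4a6b fell by 1.38 (SE 0.21) and Brca1, of DNA repair, by 1.27 (SE 0.26). Since 1 later array of Sla, 1 of Ms4a6b and 2 of Brca1 lay at the floor, the sizes of these 3 falls moved with it. At 0.5 and 2 times the floor the log2 change was -2.14 and -1.72 for Sla, -1.40 and -1.15 for Ms4a6b and -1.43 and -0.91 for Brca1, and each passed at both. Among other genes with an array at the floor, the floor also decided calls. At 0.5 times the floor Mcm10 (adjusted p = 0.19), Prim2 (0.18), Recql5 (0.20) and Dnajb5 (0.0504) did not pass, and at 2 times the floor Ccl4 (0.06), Dnajb5 (0.10) and Mmp8 (0.096) did not.

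Ccn3, a matricellular protein of the CCN family, read 353 and 439 at 3 d, 532 and 564 at 3.5 d and 1365 to 2543 (median 1491) later (log2 change 1.90, SE 0.19, adjusted p = 4.5e-08). It passed without 3 d (adjusted p = 2.1e-04). Sypl2, mitsugumin 29 of the muscle triad, read 1334 and 591 at 3 d, 2218 and 2296 at 3.5 d and 3807 to 6886 (median 4497) later (log2 change 1.77, SE 0.26, adjusted p = 3.4e-05). Sh3bgr, of striated muscle, read 824 and 641 at 3 d, 1683 and 2282 at 3.5 d and 2804 to 5160.3 (median 4139) later (log2 change 1.77, SE 0.27, adjusted p = 7.5e-05). Stard10, a lipid transfer protein, read 62.8 and 103 at 3 d, 133 and 314 at 3.5 d and 374 to 612 (median 434) later (log2 change 1.83, SE 0.39, adjusted p = 0.0032). The later arrays of all 4 lay above the earlier ones. Mup5, a major urinary protein, rose by 2.31 (SE 0.33). Both 3 d arrays lay at the floor, and at 0.5 and 2 times the floor the change was 2.58 and 1.61. Its probe set may share signal with near-identical genes of its family, so this gene is uncertain.

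The steps between neighbouring times were tested in the same fit. From 3 to 3.5 d 45 probe sets passed (0.375%; 33 higher, 12 lower), from 3.5 to 4.5 d 12 (0.1%; 6 and 6), from 4.5 to 5 d 7 (0.0583%; 2 and 5) and from 5 to 5.5 d 14 (0.117%; 8 and 6). Each step compares 2 arrays with 2, against 4 with 6 for the windows, so their counts do not compare with that of the windows. With single arrays left out, the lowest counts came without 3 d replicate 1 (9), 4.5 d replicate 2 (0), 4.5 d replicate 1 (3) and 5.5 d replicate 2 (5). The highest came without 3 d replicate 2 (25), 3.5 d replicate 1 (23), 4.5 d replicate 2 (9) and 5.5 d replicate 1 (52). Without 5 d replicate 1 and 5.5 d replicate 2 together the 4 steps gave 43, 11, 5 and 3. From 3 to 3.5 d the first sarcomere genes rose, namely Myh8 (log2 change 2.20, SE 0.28, adjusted p = 4.0e-05), Myh3 (log2 change 2.11, SE 0.39, adjusted p = 0.0072), Myl4 (log2 change 2.00, SE 0.36, adjusted p = 0.0045) and Speg, a kinase of striated muscle (log2 change 2.50, SE 0.44, adjusted p = 0.0045). A second, dimmer probe set did not pass in this step for Myl4 (0.82, adjusted p = 0.14) or Speg (-0.22, adjusted p = 1.00). Epha2, a receptor of ephrins, fell in the same step, from 405 and 237 to 38.1 and 83.4 (log2 change -2.08, SE 0.22, adjusted p = 3.2e-06), as did Sema6b, a semaphorin (log2 change -1.77, SE 0.32, adjusted p = 0.0045), and both stayed near the floor after it. Mmp8 and the DNA helicase gene Recql5 were the other falls named.

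From 3.5 to 4.5 d Gal (log2 change -1.42, SE 0.20, adjusted p = 0.0011), Chil3 (log2 change -2.09, SE 0.42, adjusted p = 0.026) and Mt1 (adjusted p = 0.026) fell. Rises in this step were those of Ccn3 (log2 change 1.44, SE 0.29, adjusted p = 0.026), Fndc1 (log2 change 1.16, SE 0.22, adjusted p = 0.025), Reck (log2 change 1.49, SE 0.29, adjusted p = 0.025) and Col7a1, the anchoring collagen (log2 change 1.76, SE 0.37, adjusted p = 0.048). Lamb3, the laminin chain given with the collagens, read 92.3 and 99.8 at 3 d, 273 and 219 at 3.5 d and 66.9 to 163 (median 89.3) later. It rose from 3 to 3.5 d (log2 change 1.35, adjusted p = 3.3e-06) and fell in this step (log2 change -0.85, SE 0.15, adjusted p = 0.015). Gal stood at 4699.7 and 5390.3 on the 4 d arrays, beside 3507 and 4742 at 3.5 d, Mt1 at 15125 and 11909, and Ccn3 at 682 and 755. Without 4.5 d replicate 2 limma called 0 probe sets in this step, and 704 (5.87%) had an unadjusted p under 0.05, where no change at all would give 5%. With all arrays this was 572 (4.77%).

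The named changes within the later window were falls from 4.5 to 5 d, rises from 5 to 5.5 d, or both. Lamb3, the laminin chain given above, fell further from 4.5 to 5 d (log2 change -1.01, adjusted p = 7.1e-04) and had no call from 5 to 5.5 d. Its fall was -1.02 without 5 d replicate 1 and 5.5 d replicate 2 together. A dim second probe set of Lamb3 changed by -0.01 from 4.5 to 5 d. Fmnl1, a formin of white blood cells, read 304 and 388 at 4.5 d, 64.0 and 73.2 at 5 d and 380.4 and 339 at 5.5 d (log2 change -2.32, SE 0.43, adjusted p = 0.028, then log2 change 2.38, SE 0.43, adjusted p = 0.01). Its dimmer second probe set read 182 and 254, 193 and 203, and 146 and 233 at these times and changed by -0.12 and -0.10 (adjusted p = 1.00 and 1.00), so that the probe sets disagree. Fbrs, a nuclear protein, went the same way (log2 change -1.26, SE 0.25, adjusted p = 0.038, then log2 change 1.36, SE 0.25, adjusted p = 0.01). Cic, a transcriptional repressor, and Sod3, the extracellular superoxide dismutase, fell from 4.5 to 5 d (log2 change -1.06, SE 0.21, adjusted p = 0.03, and log2 change -1.24, SE 0.24, adjusted p = 0.03). Rpl41 and Rps28, both ribosomal protein genes, rose from 5 to 5.5 d (log2 change 2.76, SE 0.53, adjusted p = 0.017, and log2 change 2.89, SE 0.59, adjusted p = 0.03), where 5 d replicate 1 was lowest (3484 and 3219). The other 2 probe sets of Rps28 changed by 0.13 and 0.10 in this step (adjusted p = 0.97 and 1.00). Without 5 d replicate 1 and 5.5 d replicate 2 together, Fbrs passed in both steps (adjusted p = 6.1e-04 and 0.0041). Fmnl1 (0.24 and 0.42), Cic (0.36), Sod3 (0.11), Rpl41 (0.99) and Rps28 (1.00) did not, nor did Col7a1 in the step from 3.5 to 4.5 d (0.062). That array also had the low b-actin 3' probe set among the 10, and the part of RNA quality in these steps was not tested.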

How the data were processed

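Total RNA of mouse gastrocnemius was hybridised to an oligonucleotide array. By their range the values deposited for 12488 probe sets were taken for linear intensity, since neither a unit nor software is stated in the labels. The 2% trimmed mean was 800.41 to 800.54 on all 54 arrays of the later version, so that the authors had scaled them was read from the values, and no further scaling was applied. No value lay below 0, and no pair of arrays held identical values. The number of arrays limits the precision.

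Intensities were raised to a floor of 64.7, the median over arrays of their 20th percentile, and put on the log2 scale. The manufacturer's 66 control probe sets were left out, and the 11997 probe sets with 2 or more of the 54 arrays above the floor were tested. Symbols came from the platform annotation, checked by Entrez identifier against GRCm38.p6. Of the probe sets 10833 had 1 symbol, 396 several and 1193 none, and 0 symbols needed an update. A gene was read from its brightest probe set over the 54 arrays.

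limma 3.58.1 in R 4.3.3 fitted 1 mean per time point to all 54 arrays (27 residual degrees of freedom), so every group shares the estimate of spread. The windows were compared as the mean of 4.5, 5 and 5.5 d minus the mean of 3 and 3.5 d, and neighbouring times in the same fit. Adjusted p-values are Benjamini-Hochberg over all probe sets. Levels are intensities, with SD over arrays where printed, and log2 changes carry the standard error from limma. Where an array of the lower window is at the floor, the size of a change depends on the floor. The procedure was tested on simulated data with independent noise on each array. These data held no spread between the times of a window, so the test does not cover that spread.

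The 42 gene lists (1366 entries, 2 of which matched no reference gene) rest on textbook knowledge, and the members and lists were chosen with earlier results of these data known. Named genes are the 12 largest rises and 12 largest falls among called genes whose windows did not overlap and whose mean in a window was over 4 times the floor, up to 4 members of each list and 4 genes of each step in each direction with the largest called change, and a fixed set of regulators, myosins and markers. The genes of a list named beyond these were chosen after their values were seen, and their calls were not looked at with single arrays left out.

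Sample codes share numbers and letters between times. Deviations of arrays with the same number or letters from their time point means correlated at -0.07 to 0.14, so the codes were not taken to pair arrays. Alternatives were other scalings, floors, filters, moderation, sets of arrays, window edges, blocks and left-out arrays or times. The set without 5 d replicate 1 and 5.5 d replicate 2, and the list counts without single times, were chosen after seeing the data.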

Additional observations from a re-analysis of the deposited data

Results flagged for a closer look

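Among 340 groups of arrays (both windows of each of 170 named genes), 17 held an array whose gap to the nearest of the others was large against the range of its window by Dixon's criterion. Chance flags about 1 in 20 groups. In the earlier window the highest intensity stood apart for Col14a1 (885 on 3.5 d replicate 1, next 624), Fndc1 (2891 on 3.5 d replicate 1, next 1918), Mup5 (252 on 3.5 d replicate 1, next 74.0) and Ndufc1 (1729.7 on 3.5 d replicate 1, next 1397). In the earlier window the lowest intensity stood apart for Clec3b (60.0 on 3 d replicate 2, next 199), Ctsc (3858 on 3.5 d replicate 2, next 4759), Dkk3 (195 on 3 d replicate 1, next 305), Ppara (84.2 on 3 d replicate 1, next 176) and Tagln (680.1 on 3 d replicate 1, next 1272). In the later window the highest intensity stood apart for Ccl4 (152 on 5.5 d replicate 2, next 85.6) and Recql5 (105 on 5 d replicate 2, next 75.8). Also flagged were Epha2 (66.7 on 5.5 d replicate 1, next 60.2), Myh2 (83.6 on 5 d replicate 1, next 64.6) and Sema6b (65.7 on 4.5 d replicate 1, next 52.1). The criterion used values raised to the floor, and for Epha2, Myh2 and Sema6b all other later arrays lay at it. Their ratio of gap to range was therefore 1 whatever the size of the gap, so their flags cannot show that an array stood apart. In the later window the lowest intensity stood apart for Cox7a1 (149 on 4.5 d replicate 1, next 326), Gpd1 (1089.6 on 4.5 d replicate 2, next 1993) and Hspb8 (11058 on 4.5 d replicate 1, next 13199).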

How the results depend on the processing

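Of 925 probe sets called between the windows (444 higher, 481 lower), quantile normalization gave 980, median scaling 843, a floor of 0.5 times the main one 801 and of 2 times 1143, no filter 963 and a variance trend with robust moderation 961. Other settings moved the count further. With only the 10 arrays and 1 mean per time point 1548 were called (662 and 886), and with 1 mean per window 579 (278 and 301). With time point as a random block 195 were called (113 and 82), without 3 d 88 (61 and 27), without 5.5 d 386 (222 and 164), and without 5 d replicate 1 and 5.5 d replicate 2 together 472 (241 and 231). With arrays of a time point that share a code number averaged first 2 were called (1 and 1). With time points averaged first limma called 0, where 1608 had an unadjusted p under 0.05, and a required change of at least 2-fold left 3 (1 and 2). Leaving out each of the 10 arrays in turn gave 502 to 789 in all, 265 to 396 higher and 237 to 394 lower.

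For the step from 3 to 3.5 d (45), a floor of 2 times the main one gave 89, only the 10 arrays 99 and single arrays left out 9 to 25. For 3.5 to 4.5 d (12) these were 19, 6 and 0 to 23. For 4.5 to 5 d (7) single arrays left out gave 3 to 9, and for 5 to 5.5 d (14) only the 10 arrays gave 51, single arrays left out 5 to 52 and leaving out 5 d replicate 1 and 5.5 d replicate 2 together 3.

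Of 154 named genes called, 91 kept the call with each array left out, 92 without 5.5 d, 80 with 1 mean per window, 43 with the random block and 30 without 3 d. Recql5 reversed without 3 d (0.155 on the log2 scale, adjusted p = 0.96). Without 5 d replicate 1 and 5.5 d replicate 2 together, 8 mitosis and 13 DNA replication genes fell, against 21 and 16. Respiratory chain and citric acid cycle genes rose in 5, against 17, glycolysis and glycogen genes in 3, against 9, and slow contractile genes in 1, against 4. Collagens and laminins rose in 14, against 15. The medians of the mitosis and respiratory lists were -0.612 and 0.41, against -0.611 and 0.404. The cause of these moves was not tested. Sample codes did not pair arrays by the check. With the code number as a replicate block 838 probe sets were called (422 and 416), and with the code letters as a replicate block 819 (401 and 418).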
